A study of Mus musculus with 2 samples.

Results

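Elastic fiber genes encode the extensible core of the arterial wall, the microfibrils on which it is laid down and the enzymes that crosslink it. The 10 genes described here are *Eln*, *Fbn1*, *Fbln5*, *Efemp2*, *Ltbp4*, *Mfap4*, *Mfap5*, *Emilin1*, *Lox* and *Loxl1*. They were taken by symbol from the gene list of the single-cell RNA sequencing (scRNA-seq) matrices, which holds 33696 genes, and each symbol matched 1 row in both matrices. All 10 had at least 20 UMIs in vascular smooth muscle cells (VSMCs), in fibroblasts, in vascular endothelial cells (VECs) and in pericytes, so none was left out of the comparisons in those cells.

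As background, tropoelastin, the product of *Eln*, is secreted as a soluble monomer, gathered on fibulins, placed on fibrillin microfibrils and made insoluble by lysyl oxidases. In the aorta, concentric elastic laminae lie between layers of VSMCs, an internal lamina lies under the endothelium, and the adventitia holds looser fibers among fibroblasts. Most of this elastin is laid down around birth and persists for long, and fragmented laminae are a hallmark of aortic aneurysm.

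Suprarenal abdominal aortas were taken on day 28 from 5-month-old male C57BL/6J mice given normal saline (Control), and from mice infused with angiotensin II (AngII) at 1500 ng/kg/min and given drinking water with 0.9% NaCl and 0.2% KCl (AngII+HS), a model of abdominal aortic aneurysm. There was 1 library per condition, so no difference between the conditions has a replicate check, no test was made, and every interval below is a 95% interval that covers counting error only. The series describes each library as pooled tissue of 5 mice, while the labels' protocol names 1 mouse for Control and 2 mice for AngII+HS. The tissue was digested with collagenases and hyaluronidase, and cells that such a digest frees poorly are underrepresented. After filtering, 10269 Control cells and 19734 AngII+HS cells were left, with a median of 7274 and 3066 UMIs per cell.

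In the deposited files the list of 24804 cell barcodes is recorded with the Control sample and the list of 11448 barcodes with the AngII+HS sample, while the Control matrix holds 11448 cells and the AngII+HS matrix 24804. Each barcode list is named for the other condition, while the name of each matrix gives the condition it is recorded with. Each matrix was therefore used with its recorded sample, and no barcode was needed. Every direction given here rests on that assignment. The lists share 67 barcodes, 0.585% of the shorter list. Cell types were named from marker genes after clustering without the elastic fiber genes, so that these genes had no part in the clustering itself. Doublets were scored before that on matrices that held these genes, so they could bear on which cells were kept.

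Elastic fiber genes were expressed by mural, fibroblast and endothelial cells, and the cell type with the highest level differed between genes. Levels are given in CPM, the UMIs of the gene scaled to the same total of UMIs in every cell type and library (1000000 UMIs). A UMI marks 1 captured molecule, so these levels were not divided by transcript length, and capture may still differ between genes. Over 8 cell types, fibroblasts held the highest level of 6 genes in Control and of 7 in AngII+HS, and VECs held the highest level of 4 genes and 1 gene. VSMCs held the highest level of *Eln* in AngII+HS and of no gene in Control. This ranks whole cell types. Arterial VECs, a part of the VECs described below, held *Eln* at 3304 CPM in Control and 4350 CPM in AngII+HS. Both levels lie above those of VSMCs, at 1351 and 2835 CPM.

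**Figure D1:**
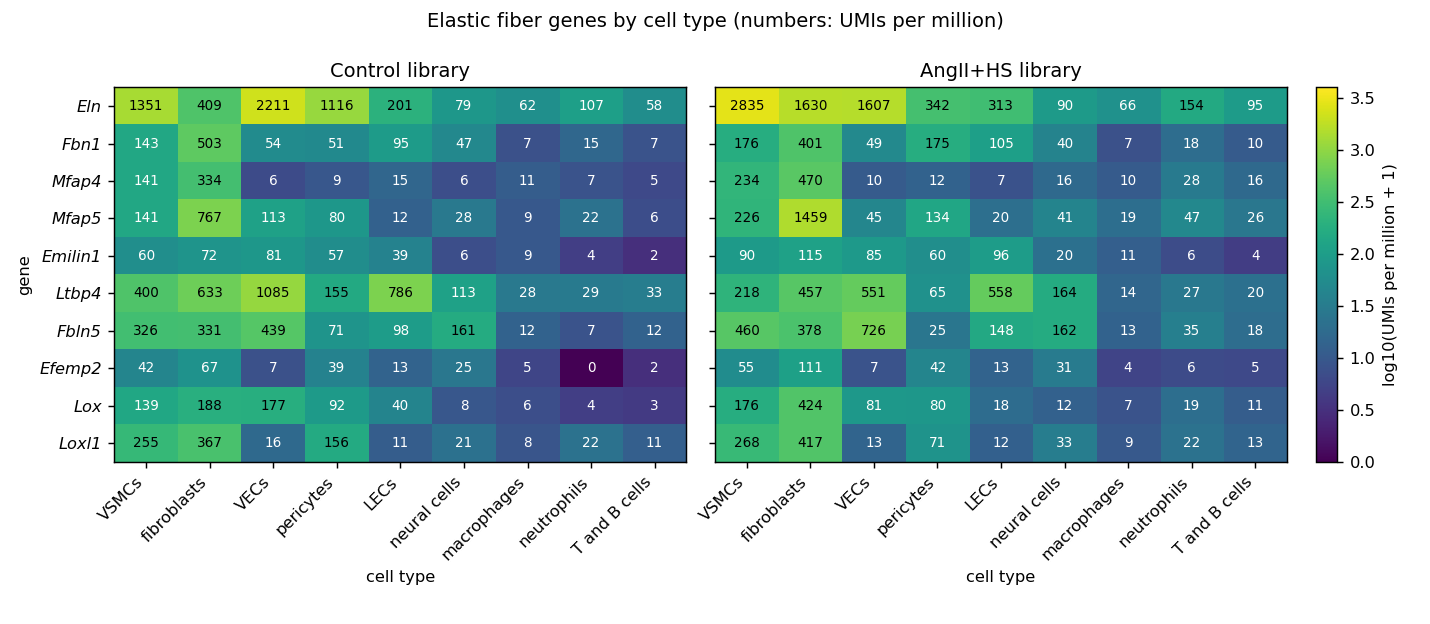
Levels of the 10 genes (rows) in 9 groups of cells (columns) in the Control library (left) and the AngII+HS library (right). Each cell prints the level in CPM, and the color is its log10 after adding 1. *Eln* is highest in VECs in Control (2211) and in VSMCs in AngII+HS (2835), *Mfap5*, *Fbn1* and *Mfap4* are highest in fibroblasts in both libraries, and all 10 genes are under 100 in T and B cells.

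T and B cells, which do not lay down elastic fibers, served as the reading of free RNA. Their summed level of all 10 genes was 140 CPM in Control and 218 CPM in AngII+HS, against 2999 and 4739 CPM in VSMCs, 3671 and 5861 CPM in fibroblasts and 4189 and 3175 CPM in VECs. By gene, the level in T and B cells was highest for *Eln*, at 57.8 and 95 CPM, and for *Mfap5* it was 6.19 and 25.7 CPM. By CPM, 2 members were at this background in VECs. *Mfap4* was at 5.54 and 9.86 CPM in VECs against 5.16 and 16.2 CPM in T and B cells, and *Loxl1* was at 16.2 and 13.2 CPM against 11.4 and 13.2 CPM. Their presence in VECs was not read as expression. In UMIs per cell, the measure used below for subtraction, free RNA would be a smaller part in cells deeper than T and B cells. *Loxl1* had 70 UMIs in 838 Control VECs and 82 in 1203 of AngII+HS, against 11 in 233 and 67 in 2112 T and B cells.

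The cells that held these transcripts changed between the libraries. VSMCs held 73.1% of all UMIs of the 10 genes in Control (95% exact binomial interval 73.0 to 73.3%) and 13.7% in AngII+HS (13.6 to 13.8%). Fibroblasts held 16.5% and 73.0%. VECs held a like share in both, 8.17% and 8.71%. These shares follow the numbers of cells captured and their depth as well as the level per cell: the libraries held 5441 and 895 VSMCs, with a median of 9706 and 6952 UMIs, and 2631 and 4713 fibroblasts, with a median of 3210 and 5120 UMIs. Without integration of the libraries, where the largest VSMC cluster received no name, the VSMC shares were 25.2% and 12.1%. How many cells the aortas themselves held cannot be read from shares of captured cells.

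The shift was unequal among genes. For *Eln*, VSMCs held 82.3% of the UMIs in Control and 23.7% in AngII+HS, fibroblasts 4.58% and 58.7%, and VECs 10.8% and 12.7%. For *Mfap5*, which codes for the microfibril-associated glycoprotein MAGP-2, fibroblasts already held 47.9% in Control and held 93.5% in AngII+HS. For *Fbln5*, whose product binds both tropoelastin and lysyl oxidases, fibroblasts held 14.2% and 55.6%, and VECs 8.20% and 23.6%.

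**Figure D2:**
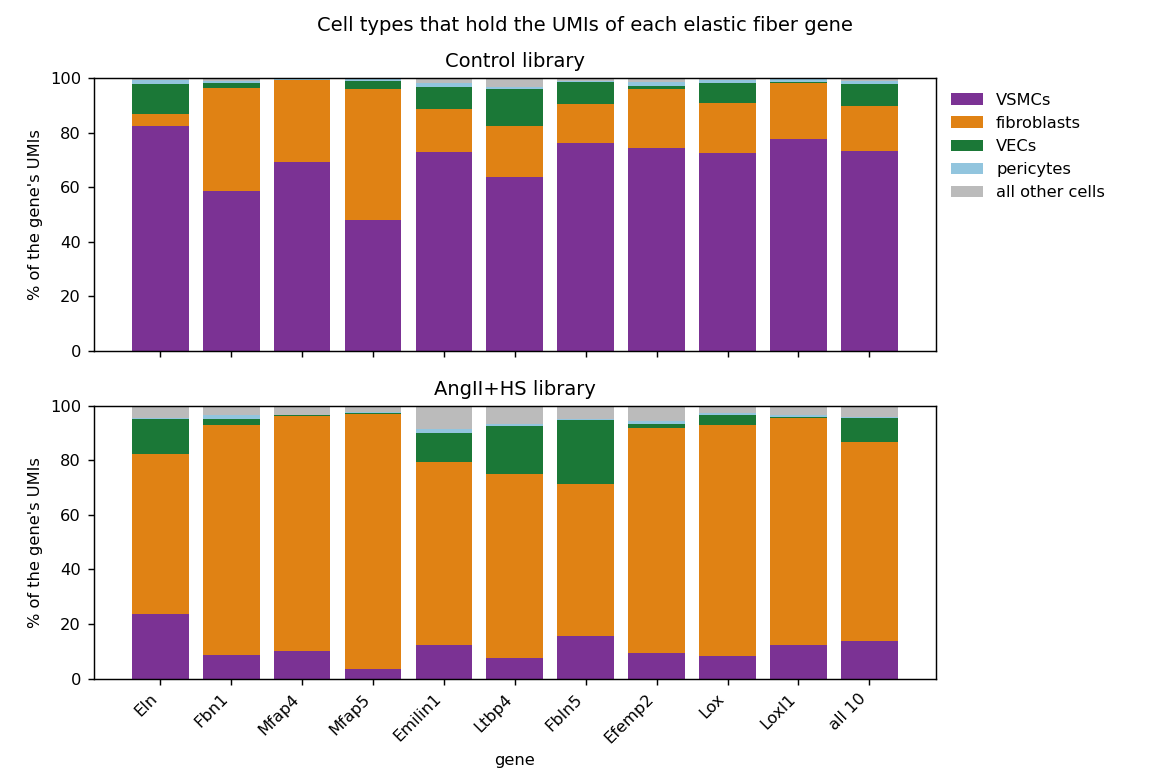
Percent of each gene's UMIs held by each cell type in the Control library (top) and the AngII+HS library (bottom), each bar summing to 100%. VSMCs (purple) hold 73.1% of the UMIs of all 10 genes in Control and 13.7% in AngII+HS, and fibroblasts (orange) hold 16.5% and 73.0%.

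The shares say where the transcripts were, and the levels say how much of a cell type's RNA they were. Within each library, fibroblasts and VSMCs differed in the levels of some of the 10 genes. In Control, 3 of the 10 genes were at least 2-fold higher in fibroblasts than in VSMCs and 1 was at least 2-fold lower, where 20.5% and 13.3% of all 16278 genes compared were so. These Control counts were near the shares of all genes, so no pattern of components is read from them. The 3 were *Mfap5* (log2 ratio 2.44, 2.39 to 2.49), *Fbn1* (1.82, 1.77 to 1.87) and *Mfap4* (1.25, 1.19 to 1.31), which are microfibril genes. *Ltbp4* (0.66, 0.62 to 0.70) and *Emilin1* (0.26, 0.14 to 0.37) were higher by less than 2-fold. The 1 lower gene was *Eln* (−1.72, −1.77 to −1.68). In AngII+HS, 6 genes were at least 2-fold higher in fibroblasts and none at least 2-fold lower, where 21.8% and 10.9% of 15530 genes were so. *Lox* (1.27, 1.18 to 1.35), *Ltbp4* (1.07, 0.99 to 1.15) and *Efemp2* (1.01, 0.85 to 1.17) had joined the 3 microfibril genes, and the difference in *Eln* had become smaller (−0.80, −0.82 to −0.77).

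VECs were compared with VSMCs in the same way. In Control, *Ltbp4* was at least 2-fold higher in VECs (log2 ratio 1.44, 1.39 to 1.48) and 4 genes were at least 2-fold lower, where 22.2% and 16.2% of 16005 genes were so. The 4 were *Mfap4*, *Loxl1*, *Efemp2* and *Fbn1*. In AngII+HS, *Ltbp4* (1.34, 1.25 to 1.43) was again higher and 6 genes were lower, *Mfap5* and *Lox* in addition, where 25.3% and 12.9% of 13408 genes were so. The arterial part of the AngII+HS VECs was above VSMCs in *Lox*, at 220 against 176 CPM. It was below them in *Mfap5*, at 108 against 226 CPM.

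*Eln* (chr5:134731445-134776322, minus strand, GRCm39) was measured at 1351 CPM in Control VSMCs (exact Poisson interval 1341 to 1361) and at 2835 CPM in AngII+HS VSMCs (2794 to 2876). In fibroblasts it was at 409 CPM (396 to 422) and 1630 CPM (1615 to 1645). In VECs it was at 2211 CPM (2167 to 2256) and 1607 CPM (1575 to 1639). The AngII+HS level was thus higher in VSMCs and fibroblasts and lower in VECs, and no pair of intervals overlapped. The log2 ratio of AngII+HS over Control was 1.07 in VSMCs (1.05 to 1.09), 1.99 in fibroblasts (1.95 to 2.04) and −0.46 in VECs (−0.50 to −0.42). By rank, *Eln* was the 393rd most abundant gene of Control fibroblasts and the 64th of AngII+HS fibroblasts.

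Because the AngII+HS cells were shallower in some cell types, the cells were also thinned to 1000 UMIs each, leaving out shallower cells. Of fibroblasts, 22.6% had an *Eln* UMI in Control and 44.9% in AngII+HS (44.0% and 73.9% without thinning). Of VSMCs, 64.8% and 77.5% had one (97.5% and 94.1% without thinning). Of T and B cells, 9.13% and 9.24% had one after thinning. Among thinned fibroblasts the 95th percentile was 2 *Eln* UMIs in Control and 8 in AngII+HS, while the median was 0 in both. The thinning left out 459 Control and 160 AngII+HS fibroblasts, and 67 and 50 VSMCs.

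In the other cell types *Eln* was lower than in VSMCs and VECs. Pericytes were at 1116 CPM in Control, above the 409 CPM of Control fibroblasts, and at 342 CPM in AngII+HS. Lymphatic endothelial cells (LECs) were at 201 and 313 CPM. Neural cells (78.6 and 89.6 CPM), macrophages (61.9 and 66.1 CPM) and neutrophils (107 and 154 CPM) lay close to the level of T and B cells, and their *Eln* UMIs could not be told apart from free RNA. Free RNA at the level of T and B cells would make up 14.1% of the *Eln* level of Control fibroblasts, 5.83% of that of AngII+HS fibroblasts, and 27.8% of that of AngII+HS pericytes.

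The microfibril genes *Mfap5*, *Fbn1* and *Mfap4* were at their highest level in fibroblasts in both libraries. *Mfap5* (chr6:122470878-122508875, plus strand) was at 767 CPM in Control fibroblasts and 1459 CPM in AngII+HS fibroblasts (log2 ratio 0.93, 0.89 to 0.96). It was at 141 and 226 CPM in VSMCs (0.68, 0.59 to 0.76). In VECs it was at 113 and 44.6 CPM, which puts VECs on the other side of 0 (−1.34, −1.56 to −1.13). Without removal of doublets this ratio was 0.090, and free RNA at the level of T and B cells would make up 57.6% of the AngII+HS level in VECs. Within arterial VECs the log2 ratio was −0.74, beside an arterial share of VECs of 58.2% in Control and 32.4% in AngII+HS. In venous (0.55, −0.92 to 2.33) and capillary VECs (0.80, −0.53 to 2.38) the intervals covered 0. After thinning, 42.1% of Control and 65.1% of AngII+HS fibroblasts had an *Mfap5* UMI, against 1.74% and 2.70% of T and B cells.

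*Fbn1* (chr2:125142514-125349913, minus strand), which codes for fibrillin-1, the main subunit of microfibrils, took another course. It was at 503 CPM in Control fibroblasts and 401 CPM in AngII+HS fibroblasts, a log2 ratio of −0.33 (−0.38 to −0.28), and at 143 and 176 CPM in VSMCs (0.30, 0.21 to 0.39). Fibroblasts therefore had more *Eln* and *Mfap5* and a slightly smaller share of *Fbn1* RNA in AngII+HS. The *Fbn1* difference depended on the processing, with log2 ratios from −0.57 to −0.005 over the alternatives run. It was also not shared by all fibroblasts: *Fbn1* was higher in 4 of the 7 subclusters compared. *Fbn1* was at 123 UMIs per 100 *Eln* UMIs in Control fibroblasts (118 to 128) and at 24.6 in AngII+HS fibroblasts (24.1 to 25.1).

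*Mfap4* (chr11:61376212-61379727, plus strand), a fibrinogen-related protein of microfibrils, was at 334 and 470 CPM in fibroblasts (log2 ratio 0.49, 0.44 to 0.55) and at 141 and 234 CPM in VSMCs (0.73, 0.65 to 0.81). *Emilin1* (chr5:31070717-31078622, plus strand), whose product lies at the interface of elastin and microfibrils, was the most evenly spread member: it was at 60.1, 71.8 and 80.6 CPM in VSMCs, fibroblasts and VECs of Control, and at 90.3, 115 and 85 CPM in AngII+HS. Its log2 ratio was 0.59 in VSMCs, 0.68 in fibroblasts and 0.08 in VECs (−0.12 to 0.28). In LECs it was at 38.8 and 96.0 CPM (1.31, 0.78 to 1.85).

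*Ltbp4* (chr7:27004086-27037117, minus strand) codes for a latent transforming growth factor β binding protein that is needed for elastic fiber assembly. It was lower in AngII+HS in each of the main vascular cell types, taken whole. It was at 400 and 218 CPM in VSMCs (log2 ratio −0.88, −0.96 to −0.80), at 633 and 457 CPM in fibroblasts (−0.47, −0.52 to −0.43), at 1085 and 551 CPM in VECs (−0.98, −1.04 to −0.91), at 155 and 65.2 CPM in pericytes (−1.25, −1.65 to −0.86) and at 786 and 558 CPM in LECs (−0.49, −0.66 to −0.33). Neural cells were the exception, with 113 and 164 CPM (0.54, 0.10 to 1.01). T and B cells also read lower, at 33.0 and 20.3 CPM, which is little beside the levels of the vascular cells. Within fibroblasts, *Ltbp4* was higher in 4 of the 7 subclusters compared and lower in 3. Within arterial VECs its log2 ratio was −0.37, beside an arterial share of VECs of 58.2% in Control and 32.4% in AngII+HS.

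*Fbln5* (chr12:101712556-101785429, minus strand) had a pattern across cell types much like that of *Ltbp4*. Pearson's r between them was 0.91 over 23 combinations of cell type and library, on log2(CPM + 5). As the points share libraries and cell types, it is a description only. Between the libraries the genes parted in VSMCs, fibroblasts and VECs, each taken whole. *Fbln5* was at 326 and 460 CPM in VSMCs (log2 ratio 0.50, 0.44 to 0.55), at 331 and 378 CPM in fibroblasts (0.19, 0.13 to 0.25) and at 439 and 726 CPM in VECs (0.73, 0.65 to 0.80). Neural cells held 161 and 162 CPM, against 12.4 and 18.2 CPM in T and B cells.

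The sequence before the annotated start of both genes is shown because they had alike cell type patterns and differences of opposite sign in VSMCs, fibroblasts and VECs. In pericytes and in venous VECs both genes were lower in AngII+HS, and in fibroblast subclusters 0, 2, 3 and 6 both differed in the same direction. In fibroblast subcluster 1 *Ltbp4* was lower (−0.76), and the *Fbln5* interval covered 0 (−0.06, −0.19 to 0.08). RefSeq promoter entries (GRCm38.p6) were matched for 5 of the 10 genes. The shown stretches end at the base before the annotated gene, each matched 1 place in GRCm39, chr12:101785430-101785628 for *Fbln5* and chr7:27037118-27037287 for *Ltbp4*, and both are written 5′ to 3′ on the minus strand. Capitals mark matches to GGGCGG, the GC box of the ubiquitous factor Sp1, on either strand.
Fbln5: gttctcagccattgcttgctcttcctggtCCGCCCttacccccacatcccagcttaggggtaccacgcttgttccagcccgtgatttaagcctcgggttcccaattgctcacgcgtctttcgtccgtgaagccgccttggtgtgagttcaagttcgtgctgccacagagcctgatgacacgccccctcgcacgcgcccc
Ltbp4: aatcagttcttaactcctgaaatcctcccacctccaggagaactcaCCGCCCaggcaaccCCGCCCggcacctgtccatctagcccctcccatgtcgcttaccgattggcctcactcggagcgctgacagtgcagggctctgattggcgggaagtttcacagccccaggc
The *Fbln5* stretch of 199 bases holds 1 match and the *Ltbp4* stretch of 170 bases holds 2, where 24.4% and 19.5% of 32851 promoter windows cut to these lengths hold at least 1. Neither stretch holds CAGAC or its reverse complement GTCTG, a short motif bound by SMAD factors, which 35.7% and 31.8% of the windows hold. There are other windows for both genes: a second *Fbln5* window, for another start, holds 2 such matches and no GC box. The full window from which the *Fbln5* stretch was cut holds 2 GC boxes, and the 3 full *Ltbp4* windows hold 3, 5 and 7 GC boxes. A match of letters is a description and shows no binding.

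*Efemp2* (chr19:5523975-5532545, plus strand), which codes for fibulin-4, was the lowest member in VSMCs and fibroblasts of both libraries. It was at 67.2 and 111 CPM in fibroblasts (log2 ratio 0.73, 0.61 to 0.85) and at 42.5 and 55.4 CPM in VSMCs (0.38, 0.22 to 0.54). In VECs it was at 6.70 and 7.27 CPM, near the 2.06 and 5.13 CPM of T and B cells.

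The lysyl oxidases, which crosslink tropoelastin and collagen, were present in VSMCs and fibroblasts in both libraries. *Lox* was at 188 and 424 CPM in fibroblasts (log2 ratio 1.18, 1.11 to 1.25), at 139 and 176 CPM in VSMCs (0.34, 0.25 to 0.43) and at 177 and 81.4 CPM in VECs (−1.12, −1.29 to −0.96). *Loxl1* (chr9:58195014-58220495, minus strand), the family member tied to elastin upkeep, was at 367 and 417 CPM in fibroblasts (0.18, 0.13 to 0.24) and at 255 and 268 CPM in VSMCs (0.08, 0.00 to 0.15). *Loxl1* thus differed little between the libraries in either cell type, and *Lox* differed by more than 2-fold in fibroblasts and, the other way, in VECs. These *Lox* values cover cells that were spread differently over subclusters in each library: no compared fibroblast subcluster reached 2-fold (0.42 to 0.93), and the ratio within arterial VECs was −0.23, beside an arterial share of VECs of 58.2% in Control and 32.4% in AngII+HS.

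The number of enzyme transcripts per elastin transcript was lower in AngII+HS in VSMCs, fibroblasts and VECs. Per 100 *Eln* UMIs, VSMCs held 29.2 UMIs of *Lox* and *Loxl1* in Control (28.7 to 29.6) and 15.7 in AngII+HS (15.1 to 16.3). Fibroblasts held 136 (130 to 141) and 51.6 (50.8 to 52.4), and VECs 8.75 (8.14 to 9.39) and 5.89 (5.41 to 6.4). Pericytes went the other way, from 22.2 (19.7 to 24.9) to 44.1 (36.6 to 53.0), on 1555 and 383 *Eln* UMIs. In VSMCs and fibroblasts *Eln* was higher by more than either enzyme, while over all VECs *Eln* was lower and *Lox* lower still, with *Loxl1* at background. Within arterial VECs *Eln* was higher (log2 ratio 0.40) and *Lox* lower (−0.23). The number of enzyme UMIs per 100 *Eln* UMIs compares libraries within a cell type. It does not say how many enzyme molecules exist per elastin molecule.

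**Figure D3:**
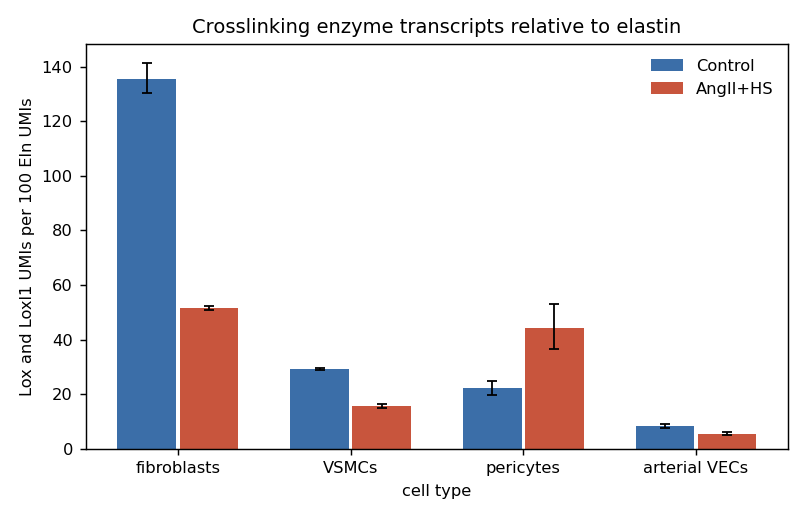
UMIs of *Lox* and *Loxl1* together per 100 *Eln* UMIs (linear axis from 0) in 4 groups of cells, with Control in blue and AngII+HS in red. The black bars are 95% intervals of counting error. Fibroblasts stand at 136 and 51.6, VSMCs at 29.2 and 15.7, pericytes at 22.2 and 44.1, and arterial VECs at 8.31 and 5.49.

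Counted as a list, 8 of the 10 genes were higher and 2 lower in AngII+HS fibroblasts, where 38.5% of 15897 genes were higher. *Eln* and *Lox* were at least 2-fold higher and none at least 2-fold lower, where 7.73% of all genes were at least 2-fold higher and 8.42% at least 2-fold lower. The median log2 ratio of the 10 genes was 0.59, and the median of all genes was −0.15. With TMM scaling, which moved all fibroblast ratios up by 0.15, the median of the 10 was 0.74, and the split of all genes past 2-fold moved from 1229 higher and 1338 lower to 1436 higher and 1020 lower.

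In VSMCs, 9 genes were higher and 1, *Ltbp4*, was lower, where 45.6% of 15688 genes were higher. *Eln* alone was at least 2-fold higher and none was at least 2-fold lower, where 6.37% and 11.3% of all genes were so. The median log2 ratio was 0.44, and that of all genes −0.05. In VECs, 4 genes were higher and 6 lower, where 53.6% of 13153 genes were higher. These counts include genes at or near the level of T and B cells: *Mfap4* and *Efemp2* among the higher and *Loxl1* among the lower. Of the 10, none was at least 2-fold higher and 2, *Lox* and *Mfap5*, were at least 2-fold lower, where 8.23% and 5.99% of all genes were so. The median was −0.22, set by *Loxl1* (−0.29) and *Fbn1* (−0.14), and that of all genes 0.05. Without removal of doublets the median of the 10 was 0.19.

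**Figure D4:**
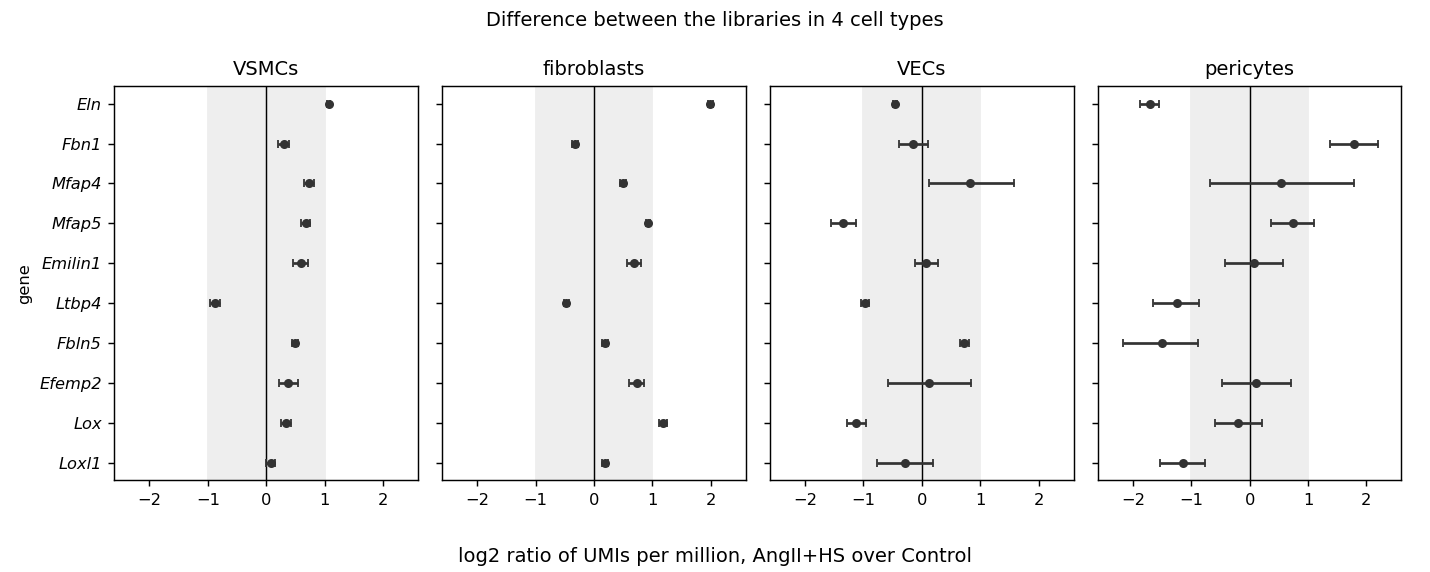
Log2 ratio of the level in CPM, AngII+HS over Control, of each gene in 4 cell types. Points are the ratios, bars 95% intervals of counting error, and the gray band is within 2-fold. *Eln* lies at 1.07 in VSMCs, 1.99 in fibroblasts, −0.46 in VECs and −1.71 in pericytes, and *Ltbp4* lies left of 0 in all 4.

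Clusters were named from marker lists, so the level of a label's own markers is no separate check of it. The summed VSMC markers were at 28737 and 37452 CPM in VSMCs, and the summed VEC markers at 11324 and 15705 CPM in VECs. Markers of other cell types moved with some of the results. In VSMCs, the summed level of 7 fibroblast markers was 1577 CPM in Control and 3800 CPM in AngII+HS, against 18796 and 39235 CPM in fibroblasts themselves. In VECs it was 246 and 589 CPM, and in fibroblasts the summed VSMC markers were at 1410 and 927 CPM. Neutrophil markers were low and higher in AngII+HS, at 6 and 160 CPM in VSMCs, 9 and 186 CPM in fibroblasts and 12 and 196 CPM in VECs. Their part in the differences of the elastic fiber genes was not tested.

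VSMCs formed 3 clusters, and *Eln* was higher in AngII+HS in each. In the largest, led by *Mylk4* and *Dsp* (3546 and 458 cells), it was at 1418 and 2800 CPM (log2 ratio 0.98). In the cluster led by *Erbb4* and *Epha7* (1047 and 326 cells) it was at 1311 and 3871 CPM (1.56), and in the cluster led by *Des* (848 and 111 cells) at 1101 and 1836 CPM (0.74). The AngII+HS cells of the *Erbb4* cluster stood apart by depth, with a median of 2245 UMIs against 7757 in Control, and by mitochondrial UMIs, with 6.43% against 4.32%. *Ltbp4* was lower in AngII+HS in all 3 clusters, by log2 ratios between −1.45 and −0.78. *Emilin1* and *Mfap5* were higher in all 3. The cluster led by *Des* had the lowest *Mfap5* (43.3 and 59.5 CPM) and *Mfap4* (34.2 and 35.9 CPM), where the *Mylk4* cluster had 177 and 278 CPM and 175 and 293 CPM.

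Fibroblasts were divided into 10 subclusters, of which 7 could be compared between the libraries. The 7 include subcluster 3, which was shallow, with a median of 891.5 UMIs in 602 Control cells and 1565 UMIs in 348 AngII+HS cells. They also include subcluster 5, led by mural genes. *Eln* was higher in AngII+HS in 7 of 7, with log2 ratios from 1.07 to 2.46. *Lox* was higher in 7 of 7 (0.42 to 0.93) and *Mfap5* in 7 of 7 (0.16 to 2.02). *Fbn1*, *Fbln5*, *Ltbp4* and *Mfap4* were higher in 4 and lower in 3 each. For *Fbn1*, *Fbln5* and *Mfap4* the interval lay below 0 in 2 of those 3. The values over all fibroblasts also follow how the cells of each library were spread over the subclusters, and they include subclusters found in AngII+HS alone. The part of each in the differences was not tested.

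The subclusters differed in the levels of the elastic fiber genes. Subcluster 4, led by *Smpd3*, *Cxcl13* and *Cd55* and with the highest *Pi16* (1842 and 1321 CPM), had the highest *Fbn1*, at 1343 CPM in Control and 1098 CPM in AngII+HS, against 164 to 524 CPM in the other Control subclusters shown. It had the lowest *Eln* of the subclusters present in both libraries (149 and 314 CPM) and the lowest *Mfap4* (16.5 and 54.1 CPM). Its *Mfap5* was high in both libraries, at 1277 and 1430 CPM.

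Subcluster 2, led by *Lsamp* and *Dio2*, had the widest difference in *Eln*, at 377 CPM in Control and 2070 CPM in AngII+HS (log2 ratio 2.46, 2.36 to 2.55), and in *Mfap5*, at 324 and 1314 CPM (2.02, 1.92 to 2.13). Its *Fbln5* was at 235 and 566 CPM (1.27, 1.14 to 1.40). Subcluster 1, led by *Thbs2*, *Col11a1* and *Comp*, held 199 Control and 1147 AngII+HS cells and had the highest *Lox* of the Control subclusters (493 CPM, and 683 CPM in AngII+HS). In subcluster 0, led by *Sfrp4*, *C7* and *Clec3b*, *Fbln5* was at 304 and 162 CPM (−0.91, −1.06 to −0.76) while *Mfap4* was at 214 and 595 CPM (1.48, 1.33 to 1.62).

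Subclusters 7 and 9 were found in AngII+HS alone. Subcluster 7 (395 cells), led by *Mmp13*, *Saa3* and *Lcn2*, had 1204 CPM of *Eln*, 1842 CPM of *Mfap5*, 643 CPM of *Fbn1* and 581 CPM of *Lox*. Subcluster 9 (93 cells), led by *Cxcl5*, *Aldh1a2* and *Il11*, had 182 CPM of *Eln*, 34.5 CPM of *Fbln5* and 591 CPM of *Lox*. It thus had little *Eln* beside a *Lox* level like that of subcluster 7. Subcluster 5, led by mural genes such as *Rgs5*, *Tagln* and *Myh11*, had 818 and 3445 CPM of *Eln* in 125 and 421 cells, and its *Myh11* was at 1327 CPM in Control and 203 CPM in AngII+HS. Subcluster 8, led by neutrophil genes such as *Il1b* and *S100a9*, had 15 Control cells and was not compared. Without subclusters 5 and 8 the median log2 ratio of the 10 genes in fibroblasts was 0.63, and without subclusters 7 and 9 it was 0.54.

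**Figure D5:**
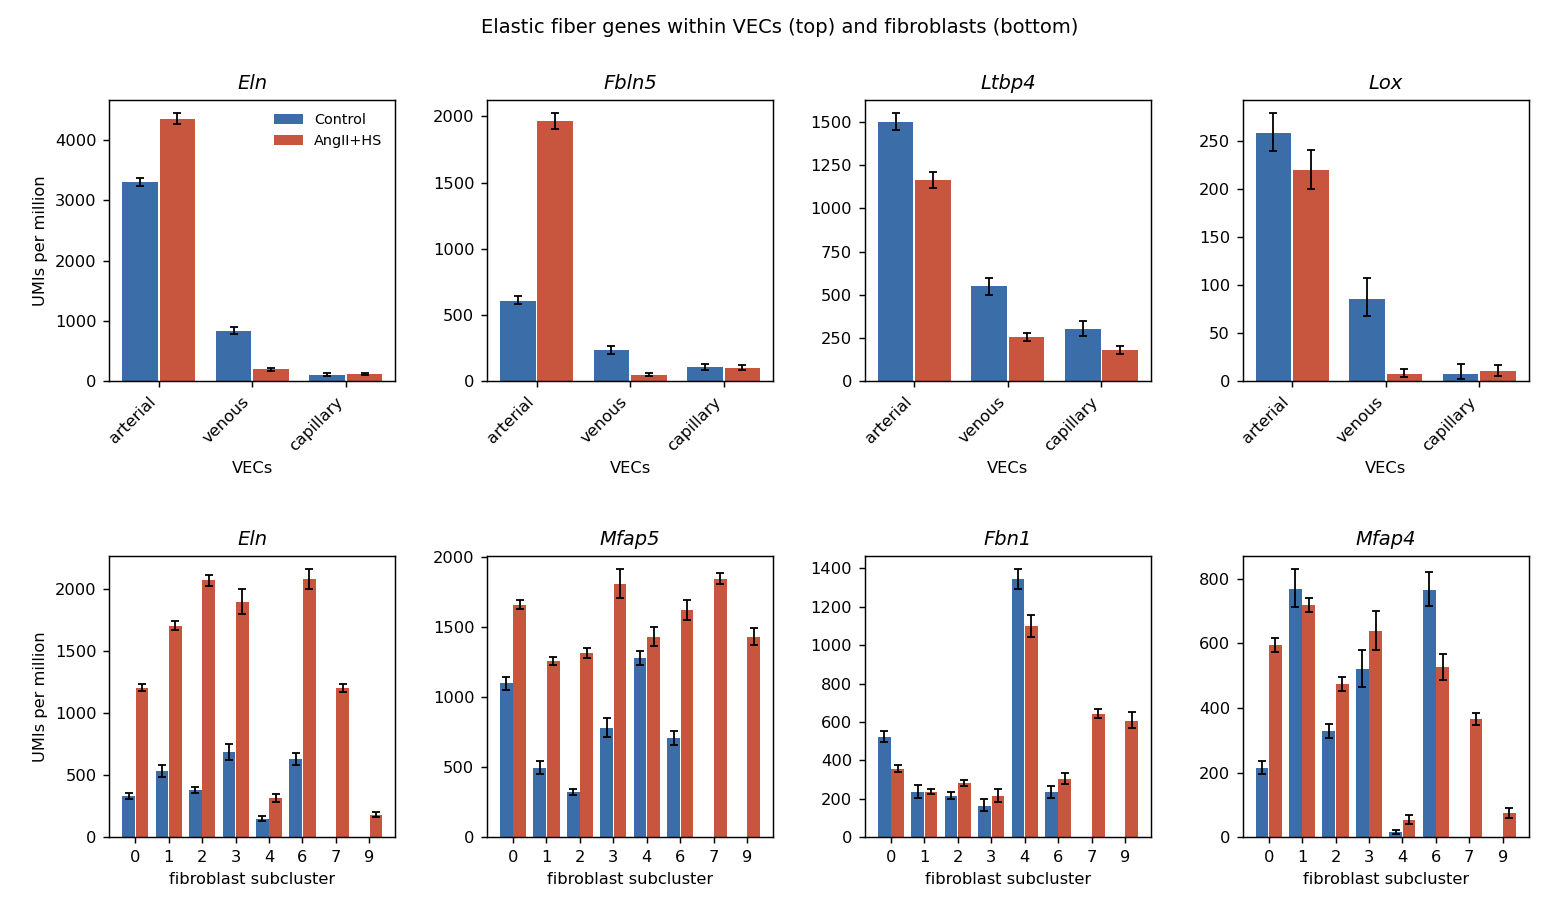
Levels in CPM (linear axes from 0) of *Eln*, *Fbln5*, *Ltbp4* and *Lox* in 3 groups of VECs (top) and of *Eln*, *Mfap5*, *Fbn1* and *Mfap4* in 8 fibroblast subclusters (bottom), with Control in blue, AngII+HS in red and black bars for 95% intervals of counting error. Arterial VECs stand at 3304 and 4350 for *Eln*, fibroblast subcluster 4 has the tallest *Fbn1* bars (1343 and 1098) and the lowest Control *Eln* (149), and subclusters 7 and 9 have no Control bar because no Control cell fell in them.

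Among VECs, *Eln*, *Fbln5*, *Ltbp4*, *Mfap5*, *Emilin1* and *Lox* were at a higher level in arterial than in venous or capillary cells in both libraries. *Fbn1* was not, at 83.9 CPM in venous and 55.7 CPM in arterial VECs of Control, and *Efemp2*, *Mfap4* and *Loxl1* were under 20 CPM in all 3. Arterial VECs held 91.1% of the *Eln* UMIs of Control VECs and 93.5% of those of AngII+HS VECs. They made up 58.2% of Control VECs (488 cells) and 32.4% of AngII+HS VECs (390 cells). Their *Eln* level was 3304 CPM in Control and 4350 CPM in AngII+HS, a log2 ratio of 0.40 (0.35 to 0.44), while over all VECs it was −0.46. The direction over all VECs is therefore the reverse of that within arterial VECs, beside the smaller share of arterial cells.

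The arterial difference was itself not uniform. *Eln* was at 4418 and 5416 CPM (log2 ratio 0.29, 0.24 to 0.35) in the arterial subcluster led by *Ptprj* and *Klk10*, and at 2584 and 4456 CPM (0.79, 0.72 to 0.86) in the one led by *Gadd45b* and *Cish*. In the one led by *Dkk2* and *Alpl* it was lower in AngII+HS, at 1899 and 889 CPM (−1.09, −1.30 to −0.89), on 77 and 67 cells. The name of the subcluster led by *Gadd45b* and *Cish* is less certain. Its *Selp*, a venous marker, was at 1837 and 1897 CPM, against 595 and 1285 CPM in the venous subcluster led by *Adarb2*. Its *Gja5*, an arterial marker, was at 466 and 479 CPM, against 3.63 and 0 CPM.

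*Fbln5* had the widest difference of any member in arterial VECs, at 610 and 1961 CPM (log2 ratio 1.68, 1.60 to 1.77). It was higher in all 3 arterial subclusters, at 739 and 2124 CPM, 451 and 2145 CPM, and 651 and 879 CPM. Per 100 *Eln* UMIs, arterial VECs held 18.5 *Fbln5* UMIs in Control (17.5 to 19.5) and 45.1 in AngII+HS (43.4 to 46.8), while fibroblasts held 81.0 and 23.2. The number of *Fbln5* UMIs per *Eln* UMI was thus higher in AngII+HS in arterial VECs and lower in fibroblasts.

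*Ltbp4* was lower in arterial VECs (1500 and 1163 CPM; log2 ratio −0.37, −0.44 to −0.29), as it was in all 6 VEC subclusters that could be compared. *Mfap5* (181 and 108 CPM; −0.74, −0.97 to −0.51) was lower too, and *Lox* was at 259 and 220 CPM (−0.23, −0.41 to −0.06). *Mfap5* was among the 10 leading genes of the largest arterial subcluster.

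Venous VECs had *Eln* at 837 CPM in Control and 199 CPM in AngII+HS (log2 ratio −2.07, −2.25 to −1.90), and *Fbln5* at 236 and 50.8 CPM (−2.22, −2.56 to −1.88). T and B cells were at 57.8 and 95 CPM of *Eln* and at 12.4 and 18.2 CPM of *Fbln5*. Free RNA could thus be a larger part of the AngII+HS levels than of the Control levels. *Lox* was at 86.2 and 7.88 CPM, and the AngII+HS level lies under the 10.7 CPM of T and B cells, so no ratio is given. The difference in *Eln* was present in both venous subclusters, led by *Ackr1* (474 and 149 CPM) and by *Adarb2* (1635 and 628 CPM). *Myh11*, a smooth muscle gene, was at 122 and 19.6 CPM in the first and at 65.3 and 37.9 CPM in the second, and its part in the result was not tested. Capillary VECs had *Eln* at 107 and 117 CPM, close to the level in T and B cells.

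The cluster called pericytes had *Notch3* and *Higd1b* among its leading genes, but the summed level of the markers did not set it apart from VSMCs. Its 6 pericyte markers summed to 2550 CPM in Control and 5364 CPM in AngII+HS, against 5876 and 6482 CPM in VSMCs, and its VSMC markers summed to more than those of VSMCs in Control. The label is therefore less certain than those of the other cell types. *Eln* was at 1116 CPM in Control and 342 CPM in AngII+HS (log2 ratio −1.71, −1.87 to −1.54), *Fbln5* at 71.0 and 25 CPM (−1.51, −2.17 to −0.89) and *Loxl1* at 156 and 70.5 CPM (−1.14, −1.53 to −0.77). AngII+HS pericytes were thus close to T and B cells in *Fbln5* (18.2 CPM). *Fbn1* was higher, at 50.9 and 175 CPM (1.78, 1.38 to 2.19). Of the 10 genes, 5 were higher and 5 lower, where 57.4% of 9279 genes were higher. 1 was at least 2-fold higher and 4 at least 2-fold lower, where 8.91% and 5.93% of all genes were so. The Control cells had more RNA of VSMC markers (31162 CPM summed, against 19798 CPM in AngII+HS) and less of VEC markers (741 against 3119 CPM), and neutrophil markers were at 4 and 406 CPM. Their part in the result was not tested, and there were 167 and 217 cells.

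Of 20 further genes of microfibrils, fibulins and crosslinking, 19 had at least 20 UMIs in fibroblasts, 18 in VSMCs and 17 in VECs. In VSMCs 8 were at least 2-fold higher and 1 lower, in fibroblasts 3 and 2, and in VECs 5 and 1. Some of these calls were not above free RNA. *Fbln1* and *Emilin2* in VSMCs were at 10.7 and 3.68 CPM in AngII+HS, against 20.5 and 7.11 CPM in T and B cells. *Emilin2* in VECs was at 3.39 CPM. Another gene called higher in VSMCs had 19 UMIs in Control and 8 in AngII+HS. Of all genes, 6.37% were at least 2-fold higher and 11.3% lower in VSMCs, 7.73% and 8.42% in fibroblasts, and 8.23% and 5.99% in VECs. *Ltbp2*, whose product binds fibulin-5, was higher in all 3, at 64.0 and 286 CPM in fibroblasts (log2 ratio 2.16), 23.3 and 81.6 CPM in VSMCs (1.81) and 16.6 and 66.4 CPM in VECs (2.0). *Ltbp1* parted between the cell types, at 828 and 1274 CPM in VSMCs (0.62) and at 435 and 180 CPM in fibroblasts (−1.27).

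*Fbln1*, a fibulin of the adventitia, was at 862 and 1082 CPM in fibroblasts (0.33), and *Fbln2* at 450 and 287 CPM in VECs (−0.65) and 260 and 350 CPM in fibroblasts (0.42). *Ltbp3* was at 105 and 201 CPM in VSMCs (0.93) and 118 and 190 CPM in fibroblasts (0.69), and *Mfap2*, the gene of MAGP-1, at 56.2 and 108 CPM in fibroblasts (0.94). *Loxl2* was at 79.4 and 100.3 CPM in fibroblasts (0.34), and *Efemp1*, the gene of fibulin-3, at 125 and 95.4 CPM (−0.39). *Emilin2* belonged to myeloid cells, at 131 and 210 CPM in macrophages, and *Atp7a*, the copper transporter that supplies lysyl oxidases, was at 120 CPM in Control macrophages. The other 10 genes of this list stayed under 100 CPM in every named cell type of at least 100 cells.

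The genes most like 4 of the members across cell types were found among 14507 genes by Pearson's r over 23 combinations of cell type and library. For *Eln* these were *Bgn* (r = 0.94), *Clu* (0.93) and *Fhl1* (0.93), and *Lox* came close to them at 0.92. For *Lox* they were *Bgn* (0.98), *Ccdc80* (0.96) and *Scara3* (0.94). For *Fbn1* they were *Lrp3* (0.96), *Scarf2* (0.95) and *Fstl1* (0.94), and for *Mfap5* they were *Chrd* (0.95), *Dnm3os* (0.92) and *Pdlim2* (0.92). Among the members themselves, r was lowest between *Mfap4* and *Ltbp4* (0.41). These points share libraries and differ in depth, so the values describe likeness only.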

How the data were processed

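The authors processed the reads with Cell Ranger and deposited UMI counts per gene and cell, not normalized. The matrix headers name Cell Ranger version 8.0.1. The labels give the genome build as mm10 and the study's methods as GRCm39. Gene positions here are from GENCODE vM39 on GRCm39, in which 33185 of the 33696 gene identifiers were found. The depth was 86618995 UMIs in Control and 117146856 UMIs in AngII+HS.

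Cells under 500 UMIs or 200 genes, or at 20% mitochondrial UMIs or more, were then left out, and doublets scored by Scrublet in scanpy 1.11.5 were removed at 0.8% per 1000 cells, 1019 in Control and 4826 in AngII+HS. The rate treats a library as a single channel. Libraries were integrated on 2000 variable genes, minus elastic fiber genes, with 30 components in Seurat 5.3.0 (R 4.3.3), and clustered at resolution 0.8. Of 24 clusters, 23 were named from marker genes. A second round, on 20 components at resolution 0.4, divided the fibroblasts and the VECs. UMIs were summed by cell type and library. Ratios have exact conditional binomial intervals, levels exact Poisson and shares exact binomial intervals. A gene was compared with at least 20 UMIs over both libraries, and counted at a 2-fold difference. Genes outside the 10 were named at 100 CPM or more. The calculation of ratios was tested on simulated counts. TMM factors came from edgeR 4.0.16. Alternatives were other doublet removal, a stricter cell filter, no integration, resolutions 0.4 and 1.2, elastic fiber genes kept for clustering, other scaling, equal weight per cell, free RNA subtracted and thinning to 1000 UMIs. The members, lists and rules were chosen with earlier results of these data known.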

Additional observations from a re-analysis of the deposited data

Results flagged for a closer look

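Among VSMCs, fibroblasts, VECs and pericytes, 4 genes differed between AngII+HS and Control in opposite directions in different cell types, by at least 0.5 on the log2 scale with a counting interval on 1 side of 0. With 1 library per condition, these differences between cell types were not tested. By this threshold the opposite directions of *Eln* and *Fbln5* rest on the pericytes, whose label is less certain than the others. In pericytes the summed VSMC markers were at 31162 CPM in Control and 19798 CPM in AngII+HS, and the VEC markers at 741 and 3119 CPM. Free RNA would make up 27.8% of the *Eln* level of AngII+HS pericytes. The log2 ratio of *Eln* was 1.07 in VSMCs and 1.99 in fibroblasts, and −1.71 in pericytes. That of *Fbln5* was 0.73 in VECs and −1.51 in pericytes. In AngII+HS pericytes *Fbln5* was at 25 CPM, against 18.2 CPM in T and B cells. Within VECs its log2 ratio was 1.68 in arterial, −2.22 in venous and −0.04 in capillary cells. That of *Mfap5* was 0.68 in VSMCs, 0.93 in fibroblasts and 0.74 in pericytes, and −1.34 in VECs, where it was 0.090 without removal of doublets. Within arterial VECs it was −0.74, and in venous and capillary VECs its interval covered 0. That of *Lox* was 1.18 in fibroblasts and −1.12 in VECs, but −0.23 within arterial VECs, which made up 58.2% of VECs in Control and 32.4% in AngII+HS. Beyond these 4 cell types, *Ltbp4* was at 0.54 in neural cells, against −0.88 in VSMCs, −0.98 in VECs and −1.25 in pericytes.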

How the results depend on the processing

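The median log2 ratio of the 10 genes kept its sign in VSMCs and fibroblasts under every alternative run, and changed sign in VECs. In VSMCs (0.44) it was 0.26 without integration and 0.33 with equal weight per cell. In fibroblasts (0.59) it was 0.50 without doublet removal, 0.74 with TMM factors and 0.46 with equal weight per cell. In VECs (−0.22) it was 0.19 without doublet removal and 0.32 in arterial VECs only. Of the single genes, 2 in VECs changed sign beyond their counting interval: *Mfap5* was at 0.090 without doublet removal and *Eln* at 0.40 in arterial VECs only. The share of elastic fiber gene UMIs from VSMCs in Control (73.1%) and AngII+HS (13.7%) was 72.9% and 13.2% without doublet removal, 69.3% and 14.7% with double the doublets removed, and 73.5% and 13.3% with the stricter cell filter. It was 25.2% and 12.1% without integration, where the largest VSMC cluster received no name. It was 71.6% and 13% at resolution 0.4, 69.7% and 12.7% at resolution 1.2, 53.4% and 10.5% with equal weight per cell, 73.7% and 14.1% with free RNA subtracted, and 62.3% and 11.1% without the VSMC cluster led by *Erbb4* and *Epha7*. The restriction to arterial VECs and the removals of named clusters were chosen after seeing the data. Another 32 values of these 5 results, and 266 values of single genes, stayed within the interval set for the reported value. For single genes, 162 values moved outside it without changing sign beyond it. The medians have no counting interval of their own. For them the interval ran from the median of the lower bounds to the median of the upper bounds of the 10 genes. The causes were not tested. No paired analysis was possible because each condition has 1 library, which also leaves no replicate to leave out. Subtraction of free RNA took away the UMIs per cell found in T and B cells and left the totals as they were.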
